A study of Mus musculus with 12 samples.

Results

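The genes of the gamma-tubulin complexes were followed through 12 mouse zygote libraries. The 10 members were Tubg1, Tubg2, Tubgcp2, Tubgcp3, Tubgcp4, Tubgcp5, Tubgcp6, Nedd1, Mzt1 and Mzt2, out of 25091 genes and repeats to which the deposited features were summed. They were represented by 16 of the 37713 RefSeq transcripts and repeats in the files. The members were listed by complex membership, and the family was chosen by 1 measured value, the much higher Tubgcp4 level after Lsm1 knockdown. The Tubgcp4 value in that comparison is therefore given as a description, with no test.

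Gamma-tubulin, encoded by Tubg1 and its close copy Tubg2, is the template from which microtubules grow. It is held in small complexes by the proteins of Tubgcp2 and Tubgcp3, and in the larger ring complex also by those of Tubgcp4, Tubgcp5 and Tubgcp6. NEDD1 attaches the ring to centrosomes and spindles, and the small MOZART proteins, from Mzt1 and Mzt2, bind the ring proteins. Mouse oocytes and early zygotes have no centrioles and build their spindles from other microtubule organizing centres, which contain gamma-tubulin and pericentrin.

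All zygotes came from superovulated B6D2F1 females of 8 to 10 weeks, mated with males (BDF1 by the study's methods), and were collected 18 to 20 h after human chorionic gonadotropin. Total RNA-seq compared zygotes injected with Lsm1 siRNA (Lsm1_KD) with zygotes injected with Lsm1 scramble siRNA (Ctrl). LSM1 belongs to a cytoplasmic ring of proteins that binds RNA to be decapped and degraded. The labels place the injection in zygotes, whereas the study also describes siRNA injection into oocytes at the germinal vesicle stage, so that the stage behind these libraries is not settled. RNA immunoprecipitation (RIP-seq) used zygotes given Lsm1_3XFlag mRNA (FLAG) or, by the treatment labels, untagged Lsm1 mRNA (Ctrl), with RNA of the lysate (Input) and RNA recovered on anti-FLAG gel (IP). Each of the 6 groups had 2 libraries, and nothing in the labels says how many animals stood behind each one. The p-values thus measure the spread between these libraries, which may be partly technical.

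The RNA-seq libraries held 4636492 to 13968315 estimated counts and the RIP-seq libraries 9865512 to 31586450. CPM values are counts scaled to one common library total, and normalised CPM values also carry the TMM factors of edgeR. The normalised CPM of Lsm1 itself was 67.3 ± 5.23 in Lsm1_KD and 145 ± 2.26 in Ctrl (SD, n = 2), a log2 fold change of -1.10 (SE 0.217, adjusted p = 0.00725, edgeR). The control RIP libraries are titled IgG, and their Lsm1 level was 16.1 to 24.6 CPM against 9931 to 121440 CPM in the FLAG libraries, so that they show no excess of the mRNA named in their treatment labels. FLAG IP replicate 1 stood apart from the other 7 RIP-seq libraries, with correlations of 0.704 to 0.821 to them and 12.7% of its counts in repeats. All 10 oocyte and zygote markers were above 0 in all 12 libraries. Markers of cumulus and granulosa cells summed to 2.80 to 13.3 CPM in 11 libraries and to 75.0 CPM in FLAG IP replicate 1, where 9 of 9 were above 0. Star alone held 34.5 CPM of the latter sum. Blood markers summed to at most 6.22 CPM. Sperm markers summed to 3.11 to 15.6 CPM, with 7.55 and 11.4 CPM in Lsm1_KD against 3.15 and 3.11 CPM in Ctrl. The sperm markers Prm1, Tnp1, Tnp2 and Odf1 were at 0 in all 4 RNA-seq libraries. Most of that sperm marker difference lay in Prm2, with 6.04 and 9.10 CPM in Lsm1_KD and 2.15 and 1.89 CPM in Ctrl. The part of sperm RNA in the knockdown differences was not tested.

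Tubgcp4 was the one member with a large difference in the knockdown. It lies on mouse chromosome 2 (chr2:121170643-121198770, plus strand, mm10) and encodes a subunit of the ring complex. The normalised CPM of Tubgcp4 was 191 and 239 in the Lsm1_KD libraries and 4.98 and 7.02 in the Ctrl libraries. Both knockdown libraries lay far above both controls, with group means of 215 ± 34.4 and 6.0 ± 1.44 (SD, n = 2). The fitted log2 fold change was 5.19. Counted from the highest such value, Tubgcp4 ranked 10 of 11335 genes and repeats tested. CPM values are shares of a library, so that more RNA per zygote and relatively less of other RNAs cannot be told apart.

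The counts of Tubgcp4 were not independent of those of a second gene. The 3′ end of Tubgcp4 runs into Trp53bp1, which is transcribed from the opposite strand (chr2:121194835-121296354) and encodes the DNA damage response protein 53BP1. The estimated counts of Tubgcp4 were not whole numbers in any of the 12 libraries, but the sums of Tubgcp4 and Trp53bp1 were whole in 12 of 12 (within 0.012 of a count), which no other gene gave in more than 3. Reads that fit both genes had therefore been divided between them. The labels name a stranded kit for each kind of library, whereas the study's methods name a stranded kit for RIP-seq and, for RNA-seq, a kit applied to sheared amplified cDNA with no strand stated. The division ran across strands in all 12 libraries. Where their exons overlap, reads from Tubgcp4 and from its antisense partner thus cannot be told apart.

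Trp53bp1 was lower where Tubgcp4 was higher. Its CPM, before TMM scaling, was 252 and 403 in Lsm1_KD and 570 and 650 in Ctrl, and the groups did not overlap. The log2 fold change of Trp53bp1 was -0.84 (SE 0.229), given without a test since the gene shares reads with Tubgcp4. The sum of both genes was 437 and 638 CPM in Lsm1_KD and 576 and 657 CPM in Ctrl, with overlapping groups. Fitted as 1 feature, the sum had a log2 fold change of -0.14 (95% confidence interval -0.60 to 0.33). Of the reads given to either gene, 42.3% and 36.8% went to Tubgcp4 in Lsm1_KD, but 0.915% and 1.05% in Ctrl. The summed reads of the locus differed by less than the spread between libraries, while the share assigned to Tubgcp4 set the groups apart. In Ctrl the sum was almost all Trp53bp1. Another division of shared reads and opposite changes of both genes therefore cannot be told apart by the sum, and neither was tested. The division also differed within Trp53bp1. Its 28-exon transcript NM_013735 had 67.8 and 63.8 CPM in Lsm1_KD and 450 and 385 CPM in Ctrl. The 27-exon transcript NM_001290830, which lacks 1 exon of 150 bases, had 184 and 339 CPM in Lsm1_KD and 121 and 266 CPM in Ctrl. Only the longer of these 2 transcripts was lower in both knockdown libraries than in both controls.

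**Figure D1:**
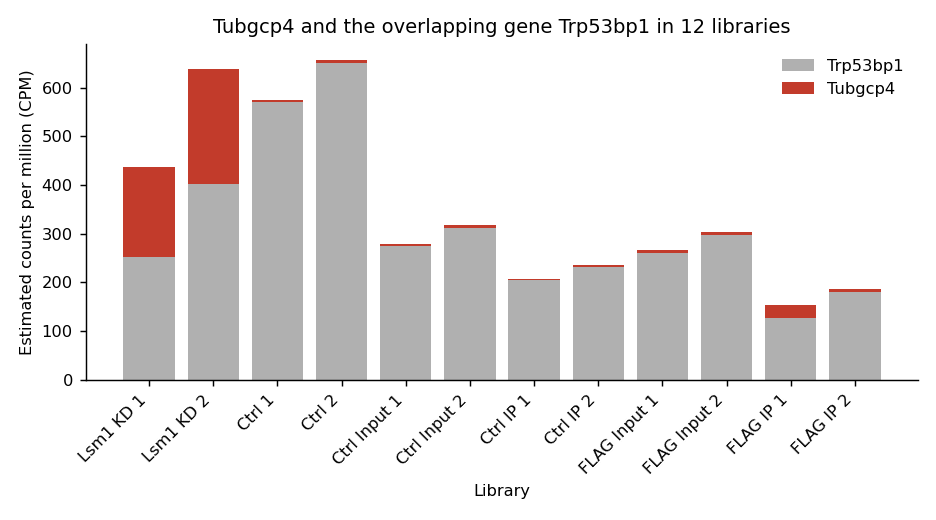
Estimated counts in CPM before TMM scaling (vertical axis, stacked bars from 0) of Trp53bp1 (grey) and Tubgcp4 (red) in each of the 12 libraries (horizontal axis). Tubgcp4 takes 42.3% and 36.8% of the bar in the 2 Lsm1_KD libraries and 17.2% in FLAG IP replicate 1, and at most 3.27% in the other 9.

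RefSeq lists 4 Tubgcp4 transcripts, and the difference lay in 2 of them. They differ at the sites printed here, read from the plus strand of chromosome 2 in the mm10 reference. The first line holds the start of exon 13, where capitals mark the last bases of the intron and the 3 bases that only the longer version of the exon keeps. The other lines hold the ends of an intron of 1293 bases in the 3′ untranslated region, with its first and last 2 bases in capitals.
exon 13 start, chr2:121189809-121189838: tatttctttacgTAGCAGatgccacccagc
intron start, chr2:121196861-121196880: aaatgcagagGTataaaaat
intron end, chr2:121198154-121198173: actgctaaAGtgacaagcct
These sites decide which transcript a read can fit, and they are shown since the transcripts share 16 exons in full.

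NR_077245 and NR_110985 have 19 exons, remove that intron (chr2:121196871-121198163) and are annotated as non-coding. NM_153387 and NM_001290824 have 18 exons, keep the stretch within a last exon of 2036 bases and encode the protein. The removed stretch begins 123 bases after the stop codon, and all 1293 of its bases lie in Trp53bp1 exons. Long forms thus share 2130 exon bases with Trp53bp1 by position, and spliced forms 837. Each form also has 2120 or 2123 exon bases outside Trp53bp1 exons, and reads there were not examined separately. The forms without the stretch held all of the Tubgcp4 counts in Lsm1_KD, with 857 of 857 counts in replicate 1 (95% exact Clopper-Pearson interval from 99.6%) and 2605 of 2605 in replicate 2 (from 99.9%). In Ctrl they held 64 of 73 counts (87.7%, interval 77.9 to 94.2%) and 51 of 51 (interval from 93.0%). The spliced forms thus held nearly all assigned Tubgcp4 counts in both groups, at very different counts. These intervals treat estimated counts as reads and cover counting error only. Reads from the 1293 bases that only long forms keep can also be given to Trp53bp1. The shares therefore describe assigned counts, and how much of the RNA was spliced was not measured.

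In the inputs the spliced forms held 94.1% to 100% of the Tubgcp4 counts. In the pull-downs the shares scattered, with 0 of 28 counts and 90.5% in the Ctrl IP libraries and 55.6% and 30.2% in the FLAG IP libraries. The FLAG IP libraries were below all 4 inputs, but the Ctrl IP libraries spanned nearly the whole range. By assigned counts, the exon 13 version set the 2 FLAG IP libraries apart from the rest. The shorter version of that exon held 77.1% and 79.3% of Tubgcp4 counts in Lsm1_KD, 78.0% and 100% in Ctrl and 23.4% to 90.5% in the inputs. In the pull-downs it held 68.8% and 100% in Ctrl IP but 0.0811% (of 259 counts) and 0% (of 86 counts) in FLAG IP. Both FLAG IP libraries thus lay below the other 10 libraries, which spread widely among themselves, and this difference was not tested. The 2 versions differ by 3 bases, so these shares describe assigned counts, and exon use was not measured.

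**Figure D2:**
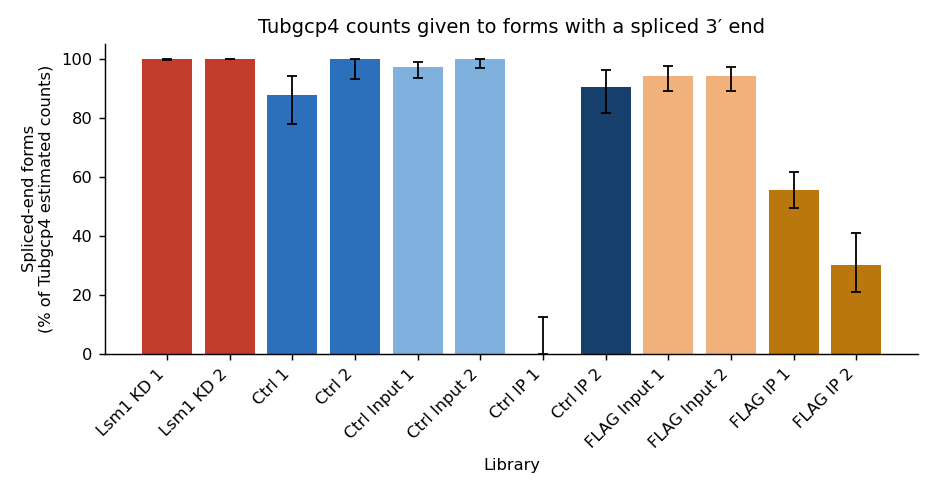
Share of Tubgcp4 estimated counts given to the 2 transcripts whose 3′ intron is removed (vertical axis, percent, bars from 0) in each library (horizontal axis), with 95% exact binomial intervals as error bars. The share is 87.7% or more in the RNA-seq and input libraries, and the lowest values are 0% in Ctrl IP replicate 1 and 30.2% in FLAG IP replicate 2.

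Other members also shared reads, as their fractional counts show. Tubg1 and Tubg2, which lie near each other on chromosome 11 and have coding sequences of the same length (1356 bases), summed to whole counts in 12 of 12 libraries, so that their separate levels are uncertain. Tubgcp2 summed to whole counts with the antisense gene Zfp511 in the 4 libraries where it was not whole by itself. Tubgcp6 did so with the antisense gene Selenoo in its 4 such libraries. Mzt1 was not whole in 11 libraries and no single partner gene was found. Tubgcp3, Tubgcp5, Nedd1 and Mzt2 were whole in all 12.

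The other members lie on 7 further chromosomes in mm10: Tubgcp5 (chr7:55794125-55831459) and Tubgcp2 (chr7:139995955-140036674), Tubgcp3 (chr8:12614277-12672854), Nedd1 (chr10:92684745-92722418), Tubg1 (chr11:101119904-101126423) and Tubg2 (chr11:101155874-101161787), Mzt1 (chr14:99034544-99046453), Tubgcp6 (chr15:89099097-89123208) and Mzt2 (chr16:15848441-15863369).

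The 9 partners of Tubgcp4 were then compared between Lsm1_KD and Ctrl. Of these, 7 passed the filter on low counts, and none was called higher or lower at an adjusted p under 0.05, where 6.6% of all 11335 features were called higher and 5.23% lower (edgeR). Without adjustment none had a p under 0.05, a level that 13.9% of features reached as higher and 13.3% as lower. DESeq2 called none of these 7 either. The log2 fold changes of these 7 had a median of -0.15, beside 0.01 over all features tested.

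The gamma-tubulin genes themselves stood at or below the control level. The normalised CPM of Tubg1 was 40.7 and 43.7 in Lsm1_KD and 37.1 and 57.0 in Ctrl. The knockdown values lay inside the control range, and the log2 fold change was -0.15 (SE 0.294, adjusted p = 0.791). The normalised CPM of Tubg2 was 132.4 and 132.0 in Lsm1_KD and 147 and 210.0 in Ctrl. The groups did not overlap, and the log2 fold change was -0.43 with a 95% confidence interval of -0.91 to 0.05 (adjusted p = 0.238). Summed to 1 feature because of their shared reads, Tubg1 and Tubg2 had a log2 fold change of -0.37 (SE 0.218, adjusted p = 0.305). The 95% intervals ended below at -0.79 for Tubg1, -0.91 for Tubg2 and -0.84 for the sum. A reduction of the size of the Lsm1 decrease lies outside them, and reductions up to those ends do not.

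The subunits that hold gamma-tubulin in the small complexes were at low levels. Tubgcp2 had a normalised CPM of 7.34 and 13.7 in Lsm1_KD and 12.1 and 8.68 in Ctrl, with a log2 fold change of 0.03 (interval -1.02 to 1.09, adjusted p = 0.976). Tubgcp3 stood at 2.89 and 2.85 in Lsm1_KD and at 3.64 and 2.07 in Ctrl, with a log2 fold change of -0.004 (interval -1.81 to 1.81, adjusted p = 0.998). For both genes the groups overlapped, and the wide intervals leave changes of 2-fold undecided. Tubgcp5, a ring subunit like Tubgcp4, had a normalised CPM of 34.9 and 20.4 in Lsm1_KD and 36.1 and 31.3 in Ctrl. These groups overlapped as well, with a log2 fold change of -0.30 (interval -1.03 to 0.44, adjusted p = 0.622).

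Tubgcp6, the largest ring subunit of the family, was hardly measured in the RNA-seq. It had an estimated count of 2.91 in Lsm1_KD replicate 1 and 0 in the other 3 libraries, which allows up to 0.270 CPM in Lsm1_KD replicate 2 and 0.215 and 0.406 CPM in the Ctrl libraries (3 counts per library). Mzt2 had 1 and 8 counts in Lsm1_KD and 14 and 4 in Ctrl. Neither gene passed the filter, and no difference was detectable at this depth.

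The targeting and accessory factors were abundant. Nedd1 had a normalised CPM of 205 and 172 in Lsm1_KD and 225 and 183 in Ctrl, with a log2 fold change of -0.12 (interval -0.56 to 0.33, adjusted p = 0.764). Mzt1 stood at 115 and 118 in Lsm1_KD and at 143 and 144 in Ctrl, with a log2 fold change of -0.30 (interval -0.74 to 0.14, adjusted p = 0.366). The Nedd1 groups overlapped and those of Mzt1 did not, but neither difference passed the test. None of the 7 partners had an interval that reaches the Tubgcp4 change. That change chose the family and depends on the division of shared reads, so this is a description only. Fitted as 1 feature with Trp53bp1, it was -0.14, which lies inside the intervals of these partners.

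**Figure D3:**
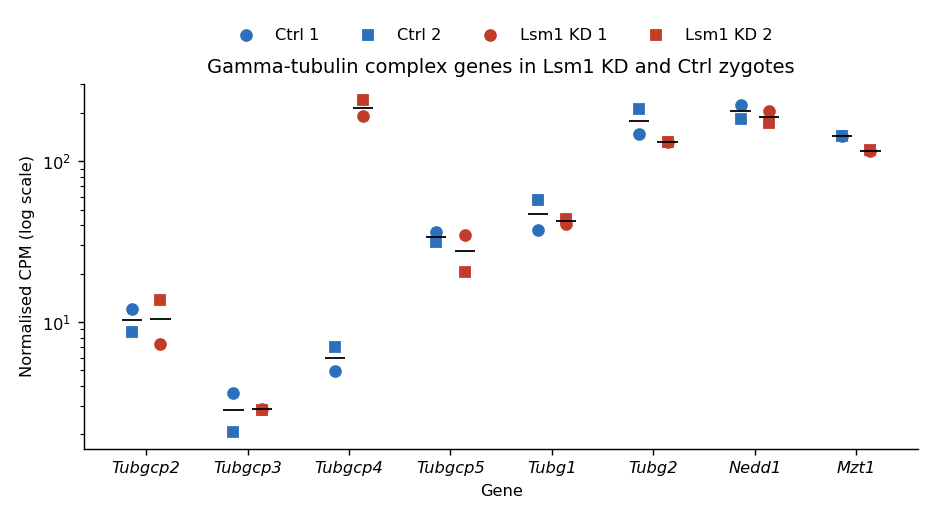
Normalised CPM (vertical axis, log scale) of the 8 members that passed the filter (horizontal axis) in Ctrl (blue) and Lsm1_KD (red) zygotes, with circles for replicate 1, squares for replicate 2 and short lines for the mean of 2. The Tubgcp4 means are 6.0 and 215, while the other 7 genes have log2 fold changes between -0.43 and 0.03.

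Genes that anchor gamma-tubulin or nucleate microtubules with it formed a second list of 31, all of which passed the filter. Of these, 5 fell in Lsm1_KD and none rose (beside 5.23% and 6.6% of all features). DESeq2 called 5 lower and 1 higher, for which the share of all features is not given here. Without adjustment 11 had a p under 0.05 as lower and 3 as higher (edgeR), beside 13.3% and 13.9% of all features. On the log2 scale the list's median was -0.48, beside 0.01 over all features. Akap9, which encodes a scaffold that docks gamma-tubulin complexes at centrosomes and the Golgi apparatus, fell from 213.7 ± 2.97 to 80.4 ± 11.2 normalised CPM (SD, n = 2), a log2 fold change of -1.41 (SE 0.211, adjusted p = 0.00155). Nin, which encodes the microtubule anchoring protein ninein, fell from 843 ± 107 to 392 ± 27.6, a log2 fold change of -1.11 (SE 0.187, adjusted p = 0.00336). Haus4, a subunit of the augmin complex that recruits gamma-tubulin to existing microtubules, and Pcnt, which encodes the scaffold pericentrin, fell less. Their log2 fold changes were -0.85 (SE 0.199, adjusted p = 0.0174) and -0.80 (SE 0.189, adjusted p = 0.0186). The gene with the fifth call was Camsap1, which encodes a protein of microtubule minus ends (-0.68, adjusted p = 0.0478), named here after its value was seen. For these 5 genes both knockdown libraries lay below both controls. The genes were picked by their calls, and how many of all features did so was not counted. This adds nothing to the calls. Without Lsm1_KD replicate 2 the list had 2 lower calls and a median of -0.263, and without Ctrl replicate 2 it had 2 and a median of -0.175.

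Of the 17 other tubulin genes, 14 passed the filter. None was called by edgeR, where 6.6% of all features were called higher and 5.23% lower. By DESeq2 1 was lower, for which the share of all features is not given here. Without adjustment 1 was higher and 2 were lower (edgeR), beside 13.9% and 13.3% of all features. The list's median on the log2 scale was -0.18. That median was 0.017 without Lsm1_KD replicate 2, with 1 gene called higher, and -0.409 without Lsm1_KD replicate 1, with 1 called lower. It was -0.364 without Ctrl replicate 2. The most abundant were Tubb3, with 409.4 ± 163 normalised CPM in Lsm1_KD and 450.2 ± 245 in Ctrl, and Tubb4b, with 227 ± 29.5 and 265.5 ± 12.9 (SD, n = 2). The Tubb3 libraries overlapped between groups, those of Tubb4b did not, and neither gene passed the test (adjusted p = 0.904 and 0.492).

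The genes around Tubgcp4 on chromosome 2 were compared next. Within 100 kb, 7 genes had deposited counts and 5 passed the filter. Apart from Trp53bp1, whose value is given above with no test, the 4 were Lcmt2, Adal, Zscan29 and Map1a, and none passed an adjusted p under 0.05. Zscan29, a zinc finger gene whose span overlaps the start of Tubgcp4 on the other strand without sharing exon bases, had a normalised CPM of 36.3 and 32.9 in Lsm1_KD and 36.6 and 34.2 in Ctrl. The groups overlapped, with a log2 fold change of -0.04 (interval -0.66 to 0.58, adjusted p = 0.956).

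The second question was at which level Tubgcp4 stood in the RIP inputs. RNA-seq and RIP inputs were made with different kits, so that their values are set side by side and not tested against each other. Before TMM scaling, Tubgcp4 had 5.48 and 4.73 CPM in the Ctrl Input libraries and 5.37 and 5.49 CPM in the FLAG Input libraries, beside 5.27 and 6.93 CPM in the Ctrl RNA-seq and 185 and 235 CPM in Lsm1_KD. The 4 inputs lay within 1 CPM of each other and far below both knockdown libraries. Their sum of Tubgcp4 and Trp53bp1 was 266 to 317 CPM, and the part given to Tubgcp4 was 1.49% to 2.02%. Between FLAG Input and Ctrl Input the log2 fold change of Tubgcp4 was 0.07 (SE 0.520, adjusted p = 1, edgeR).

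No member was called between the inputs, where 0% of all 18972 features were called in either direction (without adjustment 0.88% higher and 0.0474% lower, and no member). DESeq2 called no member either and 1 feature in all. Large differences between the inputs can go uncalled: the injected Lsm1, with a log2 fold change of 9.55, had an adjusted p of 1 (edgeR). Its SE of 1.75 was above those of the members (0.295 to 0.772), so that Lsm1 does not gauge the test for them. The member intervals were still wide, as -1.60 to 1.76 for Tubgcp6. The log2 fold changes of the 10 members had a median of 0.04, beside 0.02 over all features.

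Per length, the members spanned wide levels in control zygotes. In TPM, which scale counts by transcript length and library total, Tubg2 was highest in the Ctrl RNA-seq with 213 and 291, followed by Mzt1 with 160 and 153, Nedd1 with 155 and 121 and Tubg1 with 60.3 and 88.1. Mzt1 and Nedd1 overlapped, whereas Tubg2 lay above and Tubg1 below both. Then came Tubgcp5 with 23.8 and 19.7 TPM and Tubgcp2 with 10.0 and 6.79 TPM. Tubgcp4 stood seventh of 10 with 3.96 and 5.62 TPM, above Mzt2 with 2.66 and 1.47 TPM and Tubgcp3 with 2.42 and 1.32 TPM, and Tubgcp6 was at 0. Mzt2 and Tubgcp3 did not differ beyond their spread. In Lsm1_KD, Tubgcp4 was at 131 and 155 TPM, second and first of the 10.

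Nearly the same order held in the inputs. Tubg2 was at 70.7 to 117 TPM and overlapped Nedd1 at 60.4 to 72.6 TPM, with Tubg1 below both at 33.9 to 38.5 TPM. Tubgcp4 stood eighth of 10 in each input, with 2.33 and 2.45 TPM in Ctrl Input and 2.49 and 2.27 TPM in FLAG Input, between Mzt2 at 3.23 to 4.37 TPM and Tubgcp3 at 1.06 to 2.44 TPM. Tubgcp3 reached the range of Tubgcp4 in 1 of 4 inputs. The largest shift against the RNA-seq was that of Mzt1, with 14.6 to 20.7 TPM in the inputs, which overlapped Tubgcp5 at 17.0 to 28.5 TPM. Tubgcp6 was lowest, with 0.128 to 0.214 TPM from 23 to 26 counts per library.

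**Figure D4:**
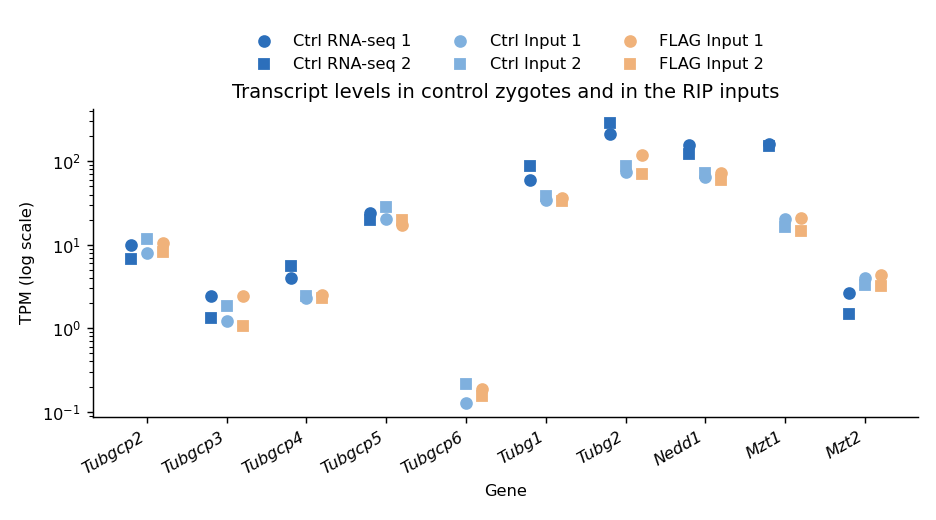
TPM (vertical axis, log scale) of the 10 members (horizontal axis) in the Ctrl RNA-seq (blue), Ctrl Input (light blue) and FLAG Input (orange) libraries, with circles for replicate 1 and squares for replicate 2. Tubgcp6 was at 0 in the Ctrl RNA-seq and has no point there, and Tubgcp4 lies between 2.27 and 5.62 TPM in these 6 libraries.

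The pull-downs asked which RNAs were recovered with FLAG-tagged LSM1. In FLAG IP against FLAG Input, 2 of the 10 members rose and 1 fell, where 21.1% of all features were called higher and 5.24% lower (without adjustment 32.6% and 13.9%). For 10 genes these counts are near those shares, so they show nothing particular to the family. Those that rose were Tubgcp6 and Tubgcp3, and the one that fell was Tubg2. In Ctrl IP against Ctrl Input no member was called, where 2.14% of features were called higher and 0.00527% lower (without adjustment 16.4% and 0.733%). Tubgcp6 alone was higher there without adjustment (edgeR), and DESeq2 called it with an adjusted p of 0.0385. These calls turned with single libraries. With any 1 library left out, Tubgcp3 kept its call only without FLAG IP replicate 2, Tubg2 kept its call only without one or the other FLAG IP library, and Tubgcp6 lost its call without one or the other FLAG Input library.

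Tubgcp6 had a normalised CPM of 39.8 and 4.91 in FLAG IP and 1.06 and 1.02 in FLAG Input, a log2 fold change of 4.42 (SE 0.825, adjusted p = 0.00606). In the control it stood at 5.83 and 5.78 in the IP and 0.815 and 1.16 in the Input, a log2 fold change of 2.55 (SE 0.777, adjusted p = 0.113). Both pull-downs thus lay above their inputs, and the difference between them, 1.87 (interval -0.44 to 4.17, adjusted p = 0.798), did not pass the test. Without FLAG Input replicate 1 or 2 the FLAG value was 4.45 and 4.39 (adjusted p = 0.0944 and 0.0738), and without FLAG IP replicate 1 or 2 the control value was called (2.51 and 2.57, adjusted p = 0.00474 and 0.00117). The difference was -0.31 without FLAG IP replicate 1, the library in which Tubgcp6 and the cumulus and granulosa markers were highest. That library also had the most genes and repeats above 0 (22053), with 3 of 3 blood markers above 0. Its sperm markers summed to 15.6 CPM, beside 15.4 CPM in Ctrl IP replicate 1. The part of other cells in the Tubgcp6 level was not tested. Summed with Selenoo, with which it shares reads, Tubgcp6 had log2 fold changes of 2.66 (adjusted p = 0.0138) in FLAG and 0.72 (adjusted p = 0.631) in the control.

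Tubgcp3 had a normalised CPM of 22.9 and 10.1 in FLAG IP and 7.06 and 3.58 in FLAG Input, a log2 fold change of 1.63 (SE 0.524, adjusted p = 0.0403). In the control it stood at 6.85 and 5.73 in the IP and 4.0 and 5.08 in the Input, a log2 fold change of 0.47 (SE 0.520, adjusted p = 0.754). Neither pull-down overlapped its inputs, but the difference between them (1.16, SE 0.732, adjusted p = 0.798) did not pass. With 1 library left out the FLAG value lay between 0.89 (adjusted p = 0.172, without FLAG IP replicate 1) and 2.20 (adjusted p = 0.140, without FLAG Input replicate 1).

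Tubg2 had a normalised CPM of 16.2 and 65.8 in FLAG IP and 154.5 and 109 in FLAG Input, a log2 fold change of -1.69 (SE 0.563, adjusted p = 0.0455). In the control it stood at 75.2 and 97.1 in the IP and 112 and 110.2 in the Input, a log2 fold change of -0.37 (SE 0.548, adjusted p = 0.822). The IP libraries were below the inputs in both, and the difference (-1.32, SE 0.778, adjusted p = 0.798) did not pass. Summed with Tubg1, the FLAG value was -1.32 (SE 0.528) and lost the call (adjusted p = 0.0742). With 1 library left out the Tubg2 value lay between -2.96 (adjusted p = 1.79e-05, without FLAG IP replicate 2) and -1.04 (adjusted p = 0.0149, without FLAG IP replicate 1).

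Tubgcp4 was not called in any pull-down comparison with all libraries. Its normalised CPM was 14.1 and 6.96 in FLAG IP and 5.87 and 6.23 in FLAG Input, a log2 fold change of 0.81 (SE 0.522, adjusted p = 0.226). In the control it was 2.40 and 4.11 in the IP and 6.13 and 5.39 in the Input, a log2 fold change of -0.81 (SE 0.531, adjusted p = 0.510). The FLAG IP libraries lay above and the Ctrl IP libraries below their inputs, with a difference of 1.62 (interval -0.002 to 3.24, adjusted p = 0.798). Without FLAG IP replicate 2 that difference was 2.07 (adjusted p = 0.0169) and the FLAG value 1.29 (adjusted p = 0.0203), whereas without FLAG IP replicate 1 they were 1.02 (adjusted p = 0.731) and 0.17 (adjusted p = 0.803). For the sum of Tubgcp4 and Trp53bp1 the sign turned, with a difference of -0.52 (SE 0.772, adjusted p = 0.845). The share of the pair given to Tubgcp4 was 17.2% in FLAG IP replicate 1, 3.27% in FLAG IP replicate 2 and 1.19% and 1.65% in the Ctrl IP libraries.

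The other 6 members, Tubgcp2, Tubgcp5, Tubg1, Nedd1, Mzt1 and Mzt2, were not called in either pull-down. Their log2 fold changes lay between -1.05 (Nedd1) and -0.03 (Tubgcp5) in FLAG IP over Input and between -0.34 (Mzt1) and 0.89 (Mzt2) in Ctrl IP over Input. Set against each other, the pull-downs gave no call for any of the 10 members, where 0% of all features were called (without adjustment 4% higher and 1.23% lower, and no member). DESeq2 called no member and 1 feature in each direction. Without FLAG IP replicate 2, 3 members were higher (Tubgcp3, Tubgcp4 and Tubgcp6) and 3 lower (Tubg1, Tubg2 and Nedd1) in this comparison, at 1768 and 4426 features in all.

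**Figure D5:**
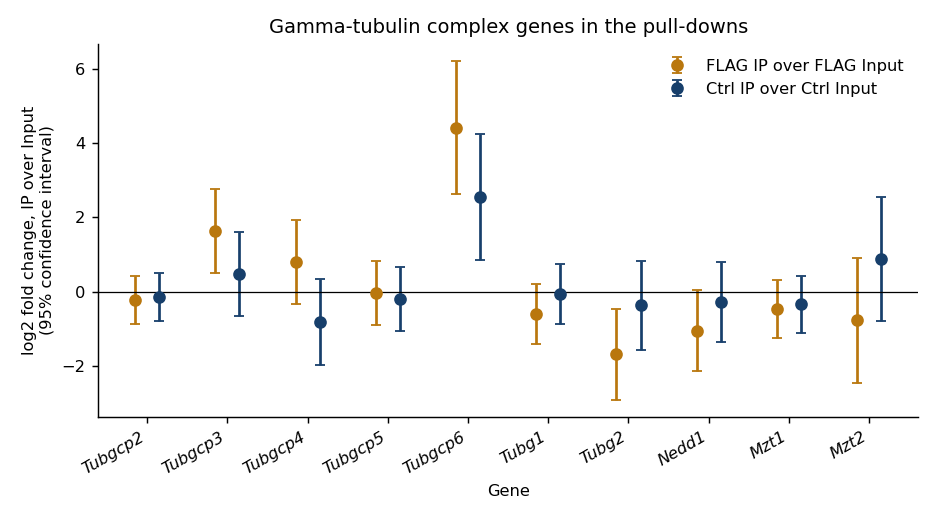
Log2 fold change of IP over Input (vertical axis) with 95% confidence intervals from the edgeR fit for the 10 members (horizontal axis) in the FLAG (brown) and Ctrl (blue) pull-downs. Tubgcp6 has the highest value in both, 4.42 and 2.55, and the 2 intervals overlap for each gene.

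Across the 12 libraries, the genes with a profile most like that of Tubgcp4 were Gar1 (Pearson r of log2(CPM + 1) 0.962), which encodes a protein of the box H/ACA small nucleolar particles, Gm10745 (0.958) and Klhl14 (0.937), out of 11303 features that passed both filters. The points share library depth and kit, and the likeness rests on the 2 Lsm1_KD libraries. Gar1 was at 35.4 and 42.6 CPM in them and at 10.3 to 22.2 CPM in the other 10 libraries. Among the partners the highest r was that of Mzt1 (0.548), and Trp53bp1 had an r of 0.01. The genes named above were picked as the highest of all 11303 features, so that any other gene lies below them by that choice. The lower r of the partners therefore says nothing about the complex.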

How the data were processed

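The authors trimmed reads (with Trimmomatic by the submitters' processing notes, with Cutadapt by the study's methods), checked them with FastQC and quantified them with Salmon on mm10 RefSeq transcripts and repeat consensus sequences. The deposited values are estimated counts and TPM per feature, with no other normalization. The strand setting of the quantification is not given in the sources used here. The RefSeq annotation of GRCm38, the same build, gave gene symbols for 37072 of 37366 transcripts. Estimated counts were summed by gene symbol, rounded and tested with edgeR 4.0.16 (R 4.3.3): TMM factors, filterByExpr, quasi-likelihood test with robust fitting, Benjamini-Hochberg adjustment over all features tested, calls at an adjusted p under 0.05. The 4 RNA-seq and the 8 RIP-seq libraries were fitted separately, each by group. Standard errors are the log2 fold change over the root of the F statistic. Alternatives used RLE factors, DESeq2 1.42.0, limma 3.58.1 on log2(TPM + 1) or log2(TPM + 0.1), other filters, a length trend, single transcripts, a replicate block and each library left out. Fits with genes that share reads summed and a crossed block were chosen after seeing the data. The scripts were tested on simulated data. The members and lists were chosen with earlier results of these data known. Named were all members, Lsm1, up to 4 called genes per list with the smallest adjusted p (or the 2 most abundant), the nearest genes on either side of Tubgcp4 and the 3 most like it in profile. Trp53bp1 is also named for its shared reads. Replicates of a group differed by more than sampling noise, and no library was left out.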

Additional observations from a re-analysis of the deposited data

How the results depend on the processing

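No partner was called in Lsm1_KD against Ctrl under the 15 alternatives run, but small log2 fold changes changed sign. Tubgcp2 was -0.120 with genes that share reads summed, -0.376 and -0.331 with limma on log2(TPM + 0.1) and log2(TPM + 1), -0.010 with no filter and -0.015 with the replicate block. Tubgcp3 was 0.030 with the length trend taken out and 0.065 with the replicate block. Leaving out 1 library gave -0.264 to 0.037 for Nedd1, -0.431 to 0.181 for Tubg1, -0.502 to 0.395 for Tubgcp2, -0.347 to 0.471 for Tubgcp3 and -0.725 to 0.051 for Tubgcp5. Tubgcp4 was -0.136 with the pair summed and 4.65 or more otherwise. Between the inputs Tubgcp4 was -0.087 summed, -0.011 with the length trend taken out, -0.006 and -0.004 with limma and -0.019 to 0.224 with 1 library left out. Summed, Tubgcp4 was -1.104 in FLAG IP over Input and -0.520 in the difference between pull-downs. In Ctrl IP over Input, Tubgcp3 was -0.070 and -0.049 with limma. The Tubgcp6 difference ranged from -0.314 to 2.735 with 1 library left out.

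In FLAG IP over Input, members called higher were 1 with the length trend taken out, 0 with either limma fit, 0 with single transcripts and 0 to 3 with 1 library left out. Members called lower were 2 with DESeq2, 2 with either limma fit, 0 with genes summed, 0 with single transcripts and 0 to 3 with 1 library left out. In Ctrl IP over Input, 1 was called higher with DESeq2, with no filter and with the lysate replicate block, and 0 to 1 with 1 library left out. Between the pull-downs, 0 to 3 were higher and 0 to 3 lower with 1 library left out. The cause was not tested. Over all features, Lsm1_KD gave 748 higher and 593 lower, against 605 and 422 with the replicate block, 378 and 708 or 416 and 811 with limma, and 0 and 0 with single transcripts. Without Lsm1_KD replicate 2 it gave 374 and 180. FLAG IP gave 4006 and 994, against 5404 and 2205 with DESeq2, and 14 and 1 without FLAG Input replicate 1. Ctrl IP gave 406 higher, against 1343 with DESeq2.

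The labels tie no replicate number to an animal or lysate, and deviations of same-numbered libraries correlated at -0.112 (Lsm1_KD and Ctrl), 0.0318 (inputs), 0.115 (FLAG) and 0.058 (Ctrl). A crossed replicate block, chosen after seeing the data, gave 1377 higher and 1220 lower features in Lsm1_KD and no partner. With 2 libraries a group, intervals were wide for Tubgcp2 and Tubgcp3, and Tubgcp6 and Mzt2 were too low to compare in the RNA-seq.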
